A study of Mus musculus with 4 samples.

Results

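A patch of 200 spots in 1 section of diseased mouse liver carried high levels of H19, Afp, Cyp3a44, Fabp4 and Fabp5, and is described here gene by gene against the rest of that section. The section, STAM20w, was 1 of 4 liver sections measured with Visium, an assay in which tissue lies on an array of barcoded spots and each captured transcript is counted by a unique molecular identifier (UMI). STAM, the metabolic model, was sampled at 16 and 20 weeks (STAM16w, STAM20w), and DEN+CCL4, the fibrotic model, at 22 and 30 weeks (DEN22w, DEN30w). All 4 tissues were livers that had been fresh frozen, stained with haematoxylin and eosin and then permeabilised on the array. In STAM, mice receive the beta-cell toxin streptozotocin and a high-fat diet, and in the other model the DNA-damaging carcinogen diethylnitrosamine (DEN) is followed by carbon tetrachloride, which scars the liver; this is background on the models, since strain, sex, doses and whether weeks count age are not given in the sources used here. Each group held 1 section, and nothing stated which animals the sections came from, so no difference below has a replicate check and none was tested.

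The patch was chosen by its own counts. A score was computed for each STAM20w spot with at least 500 UMIs and 250 detected genes: the UMIs of the 5 genes per 10000 UMIs, averaged over the spot and the up to 6 kept spots touching it. The 200 highest of 2833 kept spots, 7.06%, form the patch, out of 10627 kept spots in the series. Scores ran from 32.5 to 84.7 with a median of 52.9 in the patch, against a median of 4.56 in the other 2633 kept spots. The cut did not fall in a gap: the spot ranked 196 scored 33.5, the last one inside 32.5, the first one outside 32.2 and the spot ranked 205 scored 31.5. The levels of the 5 genes are therefore a description of the choice and not a result.

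H19 is an imprinted long noncoding RNA and Afp, alpha-fetoprotein, is the main plasma protein of the fetal liver; both are abundant in fetal hepatocytes, are shut down after birth and return in some liver tumours and in regenerating liver, which is why such genes are called oncofetal. Cyp3a44 is a cytochrome P450 with female-biased expression in mouse liver. Fabp4 and Fabp5 are small cytosolic fatty acid carriers best known in fat cells, macrophages, endothelium and skin, while hepatocytes rely mainly on Fabp1. Adult hepatocytes are also zoned, those around the central vein keeping a Wnt-dependent programme of glutamine synthesis and drug metabolism, and those around the portal vein making urea and glucose.

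The section lay in 7 separate pieces of tissue. The patch lay wholly within 1 of them, a piece of 273 kept spots, so that 73 spots of that piece were not patch spots and 0 patch spots lay in another piece. It formed 3 connected groups of 181, 16 and 3 spots, and 91.7% of the contacts of its spots were with other patch spots. No spot of the 200 highest by a Cpe score (Cpe, Slc7a11, Gpx2, Nkd1, Maoa) or by a Cib3 score (Cib3, Akr1c18, Gsta1, Serpina12, Serpinb6b), the other patches of this section used for comparison, lay in this piece. Differences between the patch and the rest of the section are thus also differences between pieces of tissue, and these cannot be told apart except within the piece.

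**Figure D1:**
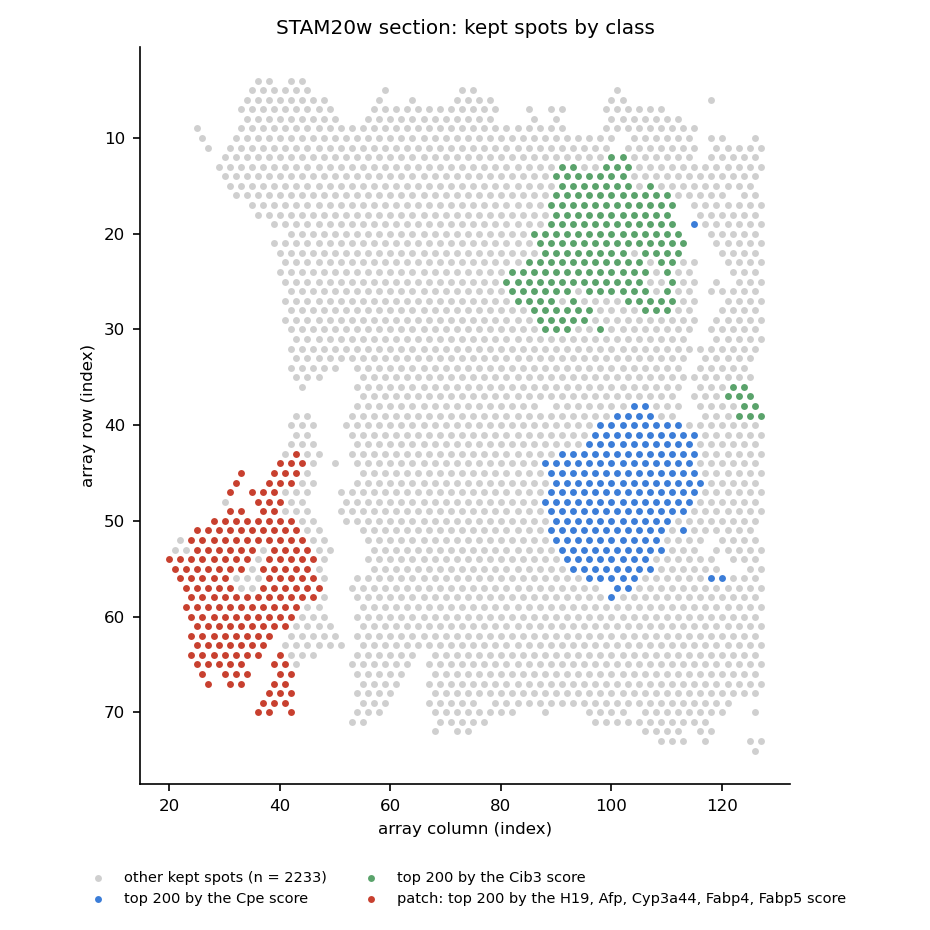
Kept spots of STAM20w by array row and column (index), coloured by class: the patch, the Cpe and Cib3 patches of 200 spots each, and the remaining spots. The other 73 spots of the patch's piece share the colour of the remaining spots. The patch occupies 1 separate piece at rows 43 to 70 and columns 20 to 47 and shares no spot with the other patches.

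Patch spots were deep. They held 2976748 UMIs, with a median of 13906.5 per spot against 12548 in the other kept spots, and a median of 3845 against 3450 detected genes. Mitochondrially encoded genes took 1.84% of UMIs in the patch, 2.19% in the 73 other spots of its piece and 3.82% in the other kept spots of the section, and ribosomal protein genes 9.60%, 9.27% and 7.57%. Kept spots numbered 2080, 2833, 2746 and 2968 in STAM16w, STAM20w, DEN22w and DEN30w, with medians of 9711.5, 12761, 7302.5 and 9423 UMIs, and pairs of sections shared 1639 to 2204 spot barcodes, which belong to the array and not to the tissue. Intervals below are exact 95% intervals that cover counting error only.

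Fabp4 and Fabp5 dominated the score. Of the 15996 scoring UMIs in the patch, Fabp4 gave 61.2%, Fabp5 27.3%, Afp 7.91%, H19 2.21% and Cyp3a44 1.43%. CPM gives a gene's share of all UMIs in a class of spots, scaled to 1000000. Fabp4 stood at 3288 CPM (3224 to 3354) in the patch and 332 elsewhere, and Fabp5 at 1464 (1421 to 1509) and 162. Afp was measured at 425 CPM (402 to 449) against 24.6. H19 reached 119 CPM (107 to 132) against 10.7, and Cyp3a44 76.9 (67.3 to 87.6) against 5.29. The spots chosen hardly depended on any 1 gene: 194 of the 200 were chosen again without H19, 196 without Afp, 199 without Cyp3a44, 188 without Fabp4 and 194 without Fabp5. Their genes lie at chr7:142575530-142578146 (H19), chr5:90490714-90508907 (Afp), chr5:145773983-145805891 (Cyp3a44), chr3:10204342-10208616 (Fabp4) and chr3:10012585-10016610 (Fabp5) on GRCm38.p6.

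Averaged over each of the other sections, the same genes were lower than in the patch. Whole-section levels in STAM16w, DEN22w and DEN30w were 4.15, 4.14 and 8.29 CPM for H19, 12.8, 5.07 and 6.59 for Afp, and 0.193, 0.668 and 3.35 for Cyp3a44. Fabp4 was at 58.5, 30.4 and 22.4 CPM and Fabp5 at 46.8, 58.7 and 56.2 in the same order. Each of these whole-section levels was below the patch's level of the same gene. In the 200 highest-scoring spots of these sections, Afp was at 71.7, 17.9 and 29.1 CPM against 7.29, 4.47 and 5.72 in the rest. H19 there was at 23.3, 20.9 and 45.3 CPM against 2.38, 3.35 and 6.85. Those spots were chosen on the same genes.

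Beyond the genes that chose the spots, oncofetal markers were split between some that were high and others that were nearly absent. Of a list of fetal liver and liver tumour markers, 13 members without Afp reached 20 CPM; 12 were above the other kept spots, 4 of them at least 2-fold and none 2-fold below, with a median log2 ratio of 0.45. Against the 73 other spots of the same piece the shift was not seen, with 8 of the 13 above 1 and a median of 0.00. Over all 5829 genes at 20 CPM or more the median was 0.10, with 60.9% above 1. Of them, 3.53% were at least 2-fold higher and 3.6% at least 2-fold lower, in the contrast that chose the spots. The counts of every list below are to be read beside these shares. Against the same piece the median of all these genes was -0.03, with 45.8% above 1, 0.926% at least 2-fold higher and 1.54% at least 2-fold lower. Cd24a, a surface glycoprotein of progenitor and tumour cells, was at 145 CPM against 20.6. Igf2bp3, a fetal RNA-binding protein, was at 21.5 against 3.24, Spp1, the secreted protein osteopontin, at 426 against 157, and Sox4, a transcription factor of progenitors, at 26.9 against 10.7. Mdk, a heparin-binding growth factor of the embryo, lay just under the limit at 19.8 CPM against 2.30. The best known partners of H19 and Afp were nearly absent. Igf2, the fetal growth factor next to H19, had 13 UMIs, 4.37 CPM (2.33 to 7.47) against 0.648, and Gpc3, the oncofetal glypican, had 4 UMIs. Dlk1, Lin28b and Igf2bp1 had 0 UMIs, and a count of 0, taken as up to 3 UMIs, allows 1.01 CPM each. Mycn, for which the series is named, also had 0 UMIs in the patch and stood at 0.270 CPM in the other kept spots.

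Among imprinted genes other than H19, 8 reached 20 CPM, of which 3 were at least 2-fold higher and 1 at least 2-fold lower. Over all genes at 20 CPM or more these shares were 3.53% and 3.6%. Grb10, an adaptor that restrains insulin signalling, was at 38.3 CPM against 6.40. Peg3, a zinc finger protein, was at 31.6 against 7.75 and Sgce, a sarcoglycan, at 28.2 against 8.61. Meg3, a noncoding RNA of the Dlk1 locus, went the other way with 11.8 against 43.8 CPM. The members past 2-fold thus stood on both sides, and the median of the 8 was -0.09.

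Known regulators of Afp were within 2-fold. Zbtb20, the zinc finger protein that represses Afp after birth, was at 20.8 CPM against 30.9, a log2 ratio of -0.57. Zhx2, a second postnatal repressor, was low in both, at 4.70 CPM (14 UMIs) against 6.78. Trp53, another repressor of Afp, was at 26.2 against 19.2 CPM.

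Within the patch, H19 had negative correlations with Afp, Fabp4 and Fabp5, and Cyp3a44 had little correlation with any of the other scoring genes. Across the 200 patch spots the median of H19 was 0.424 and its highest value 13.01 UMIs per 10000. The 20 richest spots held 63.3% of its patch UMIs, against 41.9% for Cyp3a44, 29.6% for Afp and 22.4% for Fabp4. On the square-root scale over the 200 spots, which share 1 library and whose depth differs, Pearson's r was -0.42 between H19 and Fabp4, -0.21 between H19 and Afp, 0.36 between Afp and Fabp4 and 0.53 between Fabp4 and Fabp5. Cyp3a44 had r of 0.0218 with Fabp4, -0.0363 with Fabp5, -0.142 with Afp and -0.0872 with H19. Cyp3a44 had only 229 UMIs over the 200 spots and H19 354, against 9789 for Fabp4. Low counts by themselves weaken r and raise the share of the richest spots. These values alone therefore do not show a separate map for Cyp3a44 or for H19. These are descriptions of spots chosen on the sum of the same genes, a choice that by itself can lower r between them.

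The densest H19 lay partly outside the patch. The 20 spots of the piece with the highest H19 averaged over touching spots, a set looked at after the map was seen, comprised 9 patch spots and 11 others in groups of 9, 8 and 3. They held 288 of the 580 H19 UMIs of the piece, 49.7%, and 848 CPM of H19, while the piece as a whole held 77.4% of the 749 H19 UMIs of the section. In these 20 spots Afp was at 215 CPM against 436 in the other 191 patch spots, Fabp4 at 1243 against 3399 and Fabp5 at 731 against 1500. The other 62 spots of the piece held 144 CPM of Afp, 1093 of Fabp4 and 469 of Fabp5. Since 11 of the 20 spots were left out of the patch by a score that was 88.4% Fabp4 and Fabp5, levels of these genes below those of patch spots follow from the choice. Gstm1, a glutathione transferase, was higher there, at 1576 against 595 CPM, and so was the acute phase protein Saa1, at 698 against 269. Cyp2a4, a female-biased P450, did not separate them, at 1119 against 1064. A hole of 8 non-patch spots enclosed by the patch held 1127 CPM of H19 (76 UMIs) and 682 CPM of Slpi, an antiprotease, with Afp at 104 and Fabp4 at 1364 CPM.

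**Figure D2:**
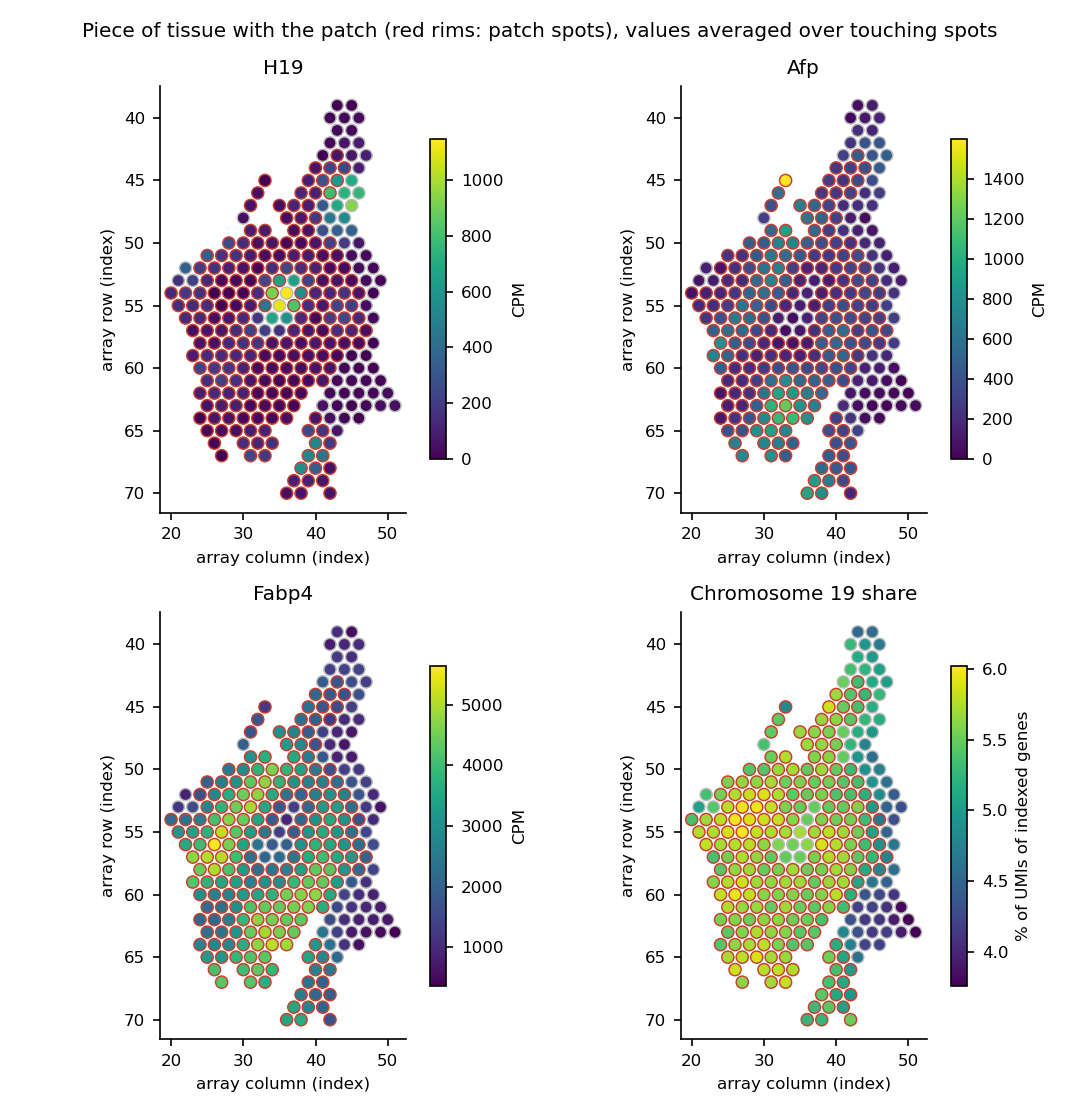
The piece of 273 spots by array row and column (index), each spot coloured by a value averaged over it and its touching spots: levels of single genes in CPM and, in the last panel, the percentage of UMIs of indexed genes that came from chromosome 19. Red rims mark patch spots. Fabp4 fills the patch, H19 is concentrated in a few spots that hold 49.7% of its UMIs in the piece, and the chromosome 19 percentage follows the patch's outline.

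The 16-spot group of the patch, which does not touch the main group, had the richer H19. It measured 277 CPM (218 to 347) against 104 (91.8 to 117) in the group of 181 spots. Afp was 468 CPM (390 to 557) and 419 (395 to 445), with overlapping intervals, and Fabp4 2696 (2504 to 2899) and 3362 (3293 to 3432). In the small group each of the 90 genes listed next as higher was above the other kept spots, 69 at least 2-fold. Each of the 145 lower genes was below, 121 at least 2-fold. These genes were picked from patch totals that include this group, so the counts follow in part from the choice. The share over all genes was not computed for this group.

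Levels of Fabp4 and Afp fell from the core of the patch outward. Fabp4 was at 3797 CPM in the 95 spots 3 or more steps inside the patch, 3449 in the 55 spots 2 steps inside and 2286 in the 50 spots at the edge. Outside, it was at 1272 in 40 spots touching the patch, 803 in 18 spots at 2 steps, 718 in 15 spots at 3 to 5 steps and 308 in other pieces. Afp followed with 550, 367 and 274 inside, 211, 72.1 and 32.6 outside, and 20.6 CPM in other pieces. H19 was highest just outside instead, with 97.1, 109 and 165 inside, 306 in the touching spots, then 56.5, 13.1 and 4.71. The zones outside include the 8 spots enclosed by the patch, which held 76 H19 UMIs, against 206 in the 40 touching spots. The touching spots are thus not only a ring around the outer edge. Cyp3a44 was at 57.4, 100 and 86.8 CPM inside, 44.6, 31.4 and 6.53 outside and 4.32 in other pieces, highest between the core and the edge. The score averages over touching spots, which by itself smooths the edge. The zones follow from that score, to which Fabp4 and Fabp5 gave 88.4% of the UMIs in the patch and Afp 7.91%. Falling levels of these genes from the core to the outside are thus set largely by the choice.

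Against all other kept spots, 2865 genes other than the 5 reached 50 CPM in one class. Of these 90, or 3.14%, were at least 2-fold higher in the patch and 145, or 5.06%, at least 2-fold lower, with a median log2 ratio of 0.05. Since the spots were chosen in this contrast, the counts describe it and nothing is read from them. Against spots of matched depth 80 of the 90 and 130 of the 145 stayed past 2-fold. Against the 73 spots of the same piece, 20 of the 90 and 32 of the 145 did, and 86 and 143 stayed on their side of 1. In bulk over a spot, fewer cells of a type and less RNA per cell cannot be told apart.

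The genes highest over the rest were a mixed set of secreted, matrix and membrane proteins. Lamb3, a laminin chain of epithelial basement membranes, was at 149 CPM (136 to 164) against 18.4, a ratio of 8.11 (7.18 to 9.15). Slpi, secretory leukocyte protease inhibitor, was at 260 CPM (242 to 279) against 33.9, and A2ml1, a relative of the protease inhibitor alpha-2-macroglobulin, at 459 (435 to 484) against 82.2. Lepr, the leptin receptor, was at 245 CPM (227 to 263) against 48.4. These 4 genes were low in the other STAM section, at 4.59, 3.33, 49.4 and 11.3 CPM in STAM16w. Slpi was not low in DEN30w, where the whole section measured 50.1 CPM.

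Further genes of this kind had lower levels. Vmn2r3, annotated as a vomeronasal receptor, was at 109 CPM against 12.3 and was nearly absent from DEN22w with 0.0445 CPM. Itih5, a hyaluronan-binding matrix protein, was at 97.8 against 16.7, and Inhbb, an activin subunit, at 67.9 against 12.2. Tnfsf13, the cytokine APRIL, was at 75.6 against 14.8. Rgs16, a regulator of G protein signalling, was at 159 against 41.7. The ratios of these genes ran from 3.80 for Rgs16 to 8.88 for Vmn2r3.

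Metabolic enzymes and carriers made up the rest of the 15 named by the rule. Gstp3, a glutathione transferase, was at 241 CPM against 46.4, and Bdh2, a short-chain dehydrogenase, at 63.5 against 11.3. Slc25a4, the ADP/ATP carrier of heart and muscle, was at 133 against 26.4, Tstd1, a thiosulphate sulphurtransferase, at 364 against 77.4 and Vnn3, a pantetheinase, at 327 against 82.4. Serpina12, the serpin vaspin, was at 88.4 against 24.1. The Cib3 patch held 295 CPM of Tstd1 and 271 of Vnn3, near the levels here, and 127 CPM of Serpina12, a gene on which that patch was chosen.

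Gm44427, an unnamed gene model picked out after its value was seen, had the largest ratio of all, 22.6 (18.1 to 28.3), at 76.3 CPM against 3.38, with 1 UMI in the whole of DEN22w and 0 in DEN30w.

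**Figure D3:**
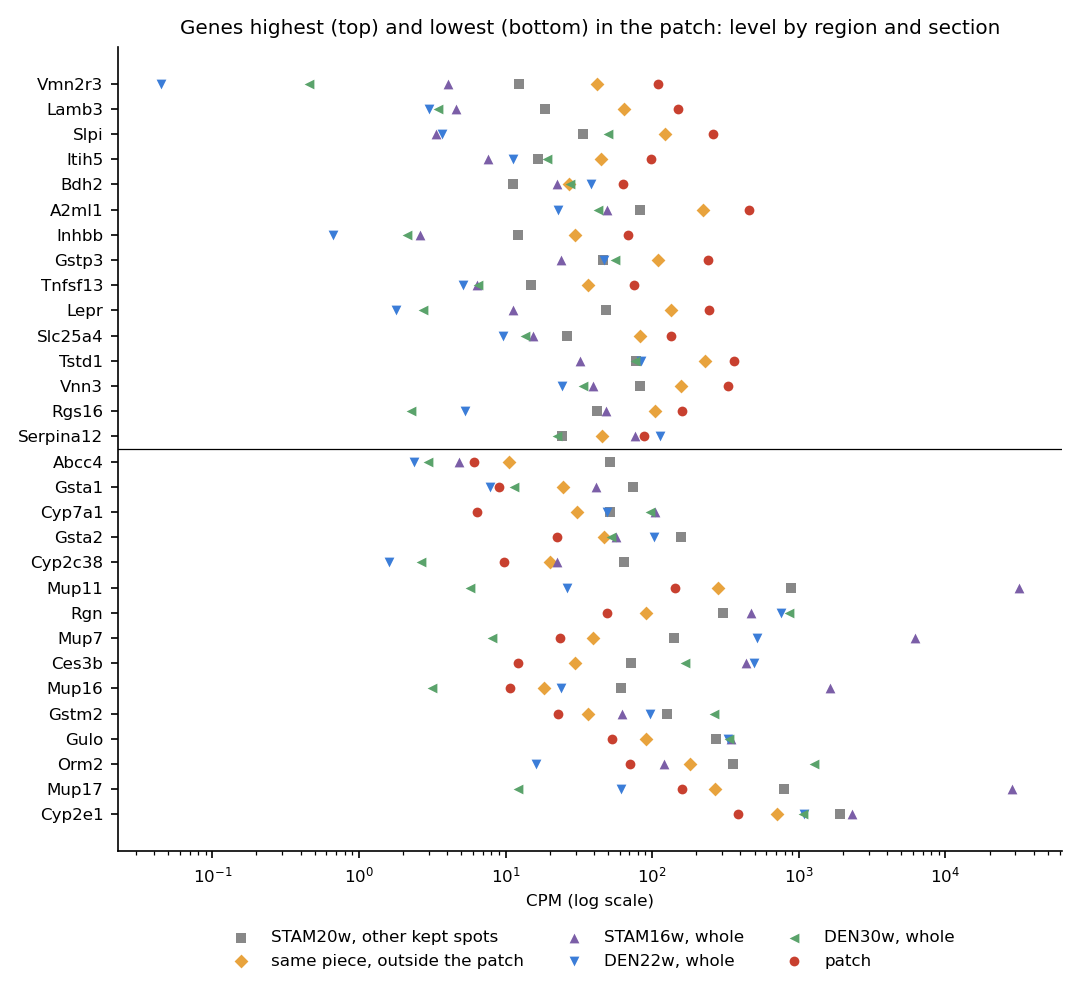
Levels in CPM on a log scale of the 15 genes highest and the 15 lowest in the patch by the naming rule, with 1 point for each spot class of STAM20w and each whole section. In the upper block the patch lies right of the other kept spots by 3.66 to 8.88-fold, and in the lower block it lies left of them.

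On the lower side stood enzymes and transporters of mature hepatocytes. Cyp7a1, the rate-limiting enzyme of bile acid synthesis, had 6.38 CPM in the patch against 51.7, a ratio of 0.123 (0.0742 to 0.193). Cyp2e1, the ethanol-oxidising P450 of pericentral hepatocytes, was at 384 CPM against 1911, a ratio of 0.201 (0.190 to 0.213). Abcc4, an efflux pump, was at 6.05 against 51.7 CPM, and the Cpe patch, which is part of the comparison, held 209 CPM. The remaining spots, those outside the patch and both the Cpe and Cib3 patches, held 26.7. Gulo and Rgn, both enzymes of vitamin C synthesis, were at 53.4 against 274 and 49.0 against 304. Orm2, an acute phase glycoprotein, was at 70.9 against 355, and Ces3b, a carboxylesterase, at 12.1 against 71.7.

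Glutathione transferases and major urinary proteins filled most other places, families whose near-identical members can share reads, so that single values are uncertain. Gsta1 was at 9.07 CPM against 74.5, Gsta2 at 22.5 against 158 and Gstm2 at 22.8 against 126. Cyp2c38, another P450 with close copies, was at 9.74 against 64.3. Mup11, Mup17, Mup7 and Mup16, secreted pheromone carriers driven by growth hormone, were at 143, 159, 23.5 and 10.7 CPM against 889, 796, 141 and 61.5. The whole of STAM16w had 28348 CPM of Mup17, above both classes of STAM20w.

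Pericentral genes were low nearly as a group, where 3.6% of all genes at 20 CPM or more were at least 2-fold lower. Of 18 members of the pericentral list at 20 CPM or more, 17 were at least 2-fold lower and 0 were above 1, with a median log2 ratio of -2.29. Cyp1a2, a P450 of caffeine and drug oxidation, was at 36.3 CPM (29.8 to 43.8) against 363, with 1474.5 in the Cpe patch and 186 in the remaining spots, a ratio to the latter of 0.195. Glul, glutamine synthetase and the defining enzyme of the innermost pericentral cells, was at 109 against 482, and Oat, ornithine aminotransferase, at 238 against 1275. Slc1a2, a glutamate transporter, and Rhbg, an ammonium transporter, were at 18.5 against 124 and 9.74 against 67.0. The low levels were shared by the rest of the piece: the median against those 73 spots was -0.48, and Cyp1a2, at 25.01 to 46.3 CPM in the 3 zones inside the patch, was at 32.7 to 58.7 in the 3 zones outside it and 373 in the other pieces, which include the Cpe patch. Against the remaining spots the median of the list was -2.10.

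Wnt feedback genes and targets, the pathway that maintains this zone, were low too. Of 7 such genes at 20 CPM or more, 5 were at least 2-fold lower, with a median of -2.14. The median was -0.47 against the same piece, and -1.24 against the remaining spots. Nkd1, a feedback inhibitor, was at 5.71 CPM against 32.3, Tbx3, a transcription factor, at 5.38 against 24.4 and Notum, a Wnt-inactivating enzyme, at 12.1 against 35.6. Axin2, below the limit, had 7 UMIs, 2.35 CPM against 12.2. The Cpe patch, part of the comparison and chosen on Nkd1 among others, held 151 CPM of Nkd1, 63.9 of Tbx3 and 81.5 of Notum. In the remaining spots Nkd1 was at 13.5 CPM, Tbx3 at 18.2, Notum at 28.5 and Axin2 at 6.63, which gives ratios of 0.424, 0.296, 0.425 and 0.355.

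Periportal genes did not take the pericentral genes' place. Of 17, 4 were at least 2-fold lower and 2 at least 2-fold higher, with a median of -0.55. Ass1, of the urea cycle, was at 335 CPM against 943. Cdh1, E-cadherin, was higher at 57.8 against 20.5 and Hsd17b6, a steroid dehydrogenase, at 365 against 141. Both zonal lists thus had medians below that of all genes.

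Drug and xenobiotic metabolism followed the same side. In the glutathione and NRF2 list 15 of 24 members were at least 2-fold lower and none 2-fold higher, with a median of -1.15, of -0.72 against the remaining spots and of -0.37 against the same piece, where 6 were above 1. Gpx2, a glutathione peroxidase, was at 2.69 CPM against 22.9, with 104 CPM in the Cpe patch, whose score it is part of, 9.99 in the remaining spots and 1.98 CPM in the whole of STAM16w. Of 25 Cyp2 and other P450 genes, 12 were at least 2-fold lower and 2 higher, with a median of -0.78 and of -0.21 against the same piece. Of 12 glucuronosyltransferases and sulfotransferases, 5 were lower and none higher, with a median of -0.81 and of -0.43 against the same piece; Ugt3a1 was at 7.05 against 37.8 CPM. Sult2a1, a steroid sulfotransferase below the limit, went against this with 15.5 CPM (46 UMIs) against 1.35.

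Sex-biased genes did not stand together. Of 14 male-biased genes, 11 were at least 2-fold lower and none 2-fold higher, with a median of -1.81 and of -0.91 against the same piece. Of 8 female-biased genes other than Cyp3a44, 2 were higher and 1 lower. Cyp2b10, a P450 induced through the receptor CAR, was at 37.0 CPM (30.4 to 44.5) against 4.64, and Cyp2a4, a steroid hydroxylase with the near-identical copy Cyp2a5, at 1073 against 317. Cyp2a5 was lower, at 802 against 2331, with 7115 CPM in the Cpe patch and 1589 in the remaining spots. Cyp17a1, a steroid hydroxylase, was lower at 31.9 against 119. Members of the Cyp3a family other than Cyp3a44 did not share its level: Cyp3a11, Cyp3a13 and Cyp3a25 had log2 ratios of -0.06, -0.24 and -0.79.

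Secreted liver proteins, in contrast, were kept. Among 8 hepatocyte markers none was 2-fold off in either direction and the median was -0.17. Of the 8, 2 were above 1 and 6 below, where 60.9% of all genes at 20 CPM or more were above. The largest shifts were those of Tat and Cps1, with log2 ratios of -0.88 and -0.75. Alb, albumin, was at 32997 CPM against 22529, Apoa1 at 6902 against 5072 and the nuclear receptor Hnf4a at 207 against 234. Apoa4, an apolipoprotein of fat export, was at 6418 (6328 to 6510) against 2046, the one of 29 listed secreted proteins that was at least 2-fold higher, while Serpina1d was the one at least 2-fold lower. None of 16 hepatocyte transcription factors was past 2-fold. The defining hepatocyte markers were thus within 2-fold of the rest, most of them on the lower side.

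Acute phase proteins were lower in part. Of 21 members 5 were at least 2-fold lower and none higher. Saa1 was at 301 CPM against 1541 and Saa2 at 87.0 against 658, close copies whose reads may be shared. Saa1 was also low in the other zones of the piece, at 255 to 452 CPM, against 1577 in other pieces. Lcn2, an iron-binding acute phase protein, stood on the other side at 1922 against 1109.

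Amino acid, bile acid and cholesterol genes were low, where 3.6% of all genes at 20 CPM or more were at least 2-fold lower. Of 28 amino acid catabolism genes, 12 were at least 2-fold lower and none higher, with a median of -0.85 and of -0.36 against the same piece; Prodh, proline dehydrogenase, was at 46.02 CPM against 161. Of 18 bile acid genes, 7 were lower, with a median of -0.62 and of -0.26 against the same piece, among them Cyp8b1, the enzyme that sets cholic acid output, at 54.4 against 233. Of 18 cholesterol synthesis genes, 3 were lower and 17 were below 1, with a median of -0.68 and of -0.21 against the same piece; Msmo1 was at 26.2 against 82.8. Fatty acid synthesis, with a median of -0.02, and fatty acid oxidation, with -0.12, stood near the median of all genes.

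Lipid handling showed single genes in place of a group. Of 18 lipid droplet genes, 2 were at least 2-fold higher and none lower. Hilpda, an inhibitor of the lipase ATGL, was at 69.9 CPM against 26.9, and Hsd17b13, a droplet enzyme of hepatocytes, at 1634 (1589 to 1681) against 686. Fabp1 was at 17411 against 9194 CPM, a log2 ratio of 0.92, and the fatty acid transporter Slc27a5 at 211 against 506.

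**Figure D4:**
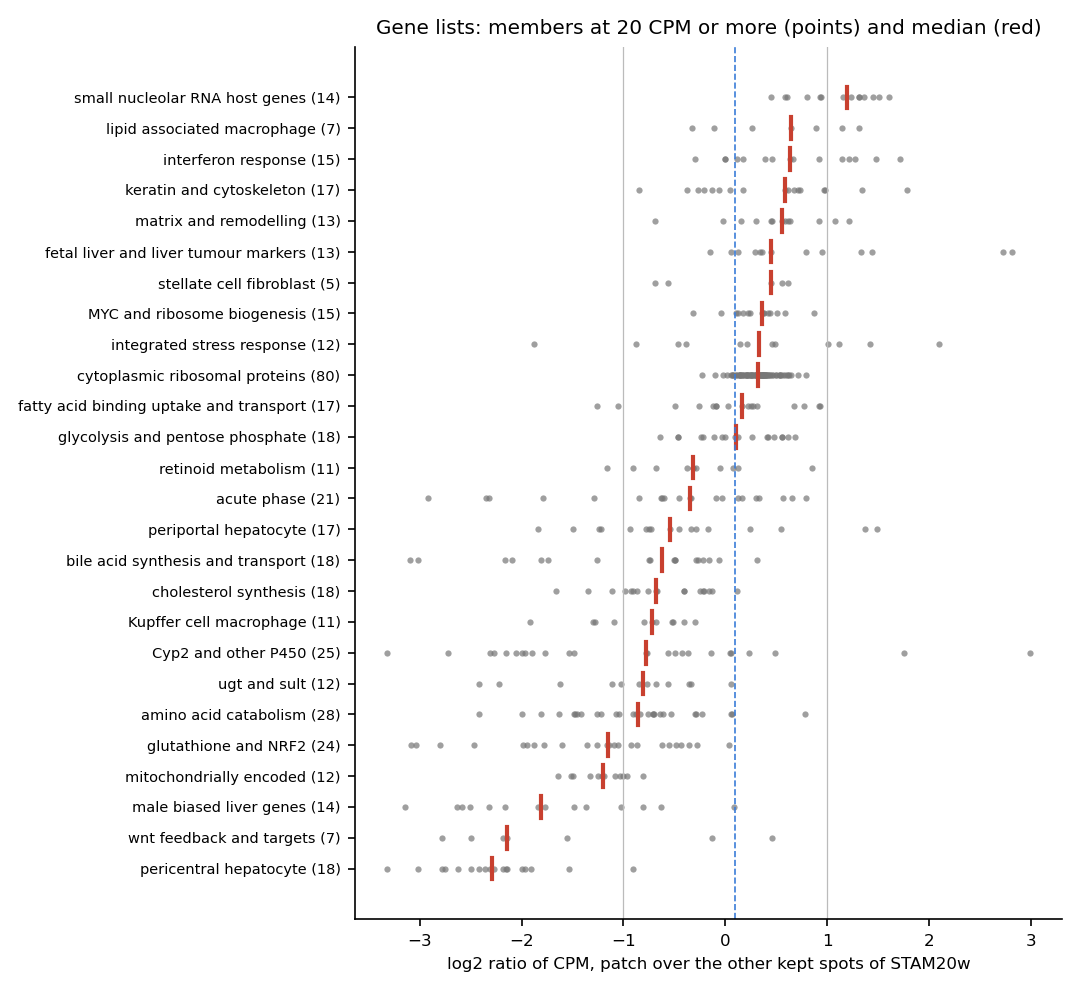
Log2 ratio of CPM in the patch over the other kept spots for the gene lists with the lowest and the highest medians. A point stands for each member at 20 CPM or more and a red mark for the median. The pericentral list has its median at -2.29 and the small nucleolar RNA host genes at 1.19. Lists with medians in between, among them the hepatocyte markers, are not drawn.

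Small nucleolar RNA host genes, a list added after the data were seen, were high. These genes make short-lived transcripts whose introns yield small nucleolar RNAs. All 14 at 20 CPM or more were above 1, 8 at least 2-fold, with a median of 1.19, and 11 of them were above 1 against the 73 spots of the piece, where the median was 0.52. Snhg3 was at 281 CPM against 91.7, Snhg1 at 194 against 68.1, Zfas1 at 176 against 64.5 and Gas5 at 1478 against 664. Ribosomal protein genes, also added, were above 1 in 77 of 80 but with a median of only 0.32, 0.04 against the same piece, and none past 2-fold. Of 15 MYC and ribosome biogenesis genes, 13 were above 1 with a median of 0.36. Against the same piece 11 were, with a median of 0.235. Over all genes at 20 CPM or more, 60.9% were above 1 in this contrast and 45.8% against the same piece. Myc itself was at 13.8 CPM against 18.1. Mitochondrially encoded genes stood opposite, with 10 of 12 at least 2-fold lower and a median of -1.20, and -0.26 against the spots of the same piece. Against spots of matched depth the medians were 1.21 for the host genes, 0.43 for ribosomal protein genes and -0.97 for mitochondrially encoded genes, as large or nearly so. What part RNA quality had in these shifts was not tested.

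Of the carriers of insulin-like growth factors, Igfbp1 and Igfbp2 were high and Igfbp3 was not. Igfbp1, a binding protein regulated by insulin, was at 1672 CPM (1625 to 1719) against 457, and Igfbp2 at 1441 against 714, while Igfbp3 was at 11.8 against 22.7. Of 16 genes of the insulin-like growth factor and growth hormone list, 10 were below 1, 2 were at least 2-fold higher and 1 lower, with a median of -0.20. Igfbp1 was graded like Afp, with 2104, 1482 and 1139 CPM inside the patch, 698, 615 and 476 outside and 451 in other pieces. Egfr, the epidermal growth factor receptor, was lower, at 38.6 against 86.0.

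Stress genes were split. Of 12 genes of the integrated stress response, the programme run by the factor ATF4, 4 were at least 2-fold higher and 1 lower. Psat1, of serine synthesis, was at 33.6 CPM against 7.83, Trib3, a pseudokinase, at 97.8 against 36.6, Fgf21, a fasting hormone, at 206 against 94.9 and Ddit3, the factor CHOP, at 138 against 68.5. Slc7a11, the cystine transporter, was lower at 5.71 against 21.0, but it is a gene of the Cpe score, with 108 CPM in that patch and 7.09 in the remaining spots, a ratio to the latter of 0.806. Chaperones of the unfolded protein response had 0 of 18 past 2-fold, as had 5 genes of the hypoxia list and 6 p53 targets.

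Promoters of 5 of these stress genes are printed because the genes carry the same letters and differed in their ratio. The letters, TGATGNAA on either strand, are those of the amino acid response element that ATF4 binds with a partner, and are in capitals in windows from RefSeq promoters (GRCm38.p6), each written in the gene's own direction.
Trib3: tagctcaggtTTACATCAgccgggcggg
Fgf21: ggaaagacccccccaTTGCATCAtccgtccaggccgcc
Chac1: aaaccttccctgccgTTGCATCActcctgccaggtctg
Asns: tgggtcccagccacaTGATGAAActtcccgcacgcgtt
Slc7a11: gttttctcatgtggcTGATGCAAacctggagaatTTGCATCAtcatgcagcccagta
They lie at chr2:152344029-152344056 on the minus strand (Trib3), chr7:45615607-45615644 minus (Fgf21), chr2:119351034-119351071 plus (Chac1), chr6:7693210-7693247 minus (Asns) and chr3:50443638-50443694 minus (Slc7a11). The letters occurred in 7 of 18 promoters of the list, 38.9%, against 4.06% of the 27025 symbols with a promoter in the table, and Atf3 and Nupr1 hold the other windows. The ratio of patch to other spots was 2.67 for Trib3, 2.17 for Fgf21, 4.07 for Chac1, 2.03 for Asns, 1.16 for Atf3, 0.763 for Nupr1 and 0.272 for Slc7a11. Chac1, with 12.1 CPM, and Asns, with 15.1 CPM, lay below the 20 CPM limit. Slc7a11 was the only one of the 7 with the letters at 2 positions. The letters of Trib3 began at base 15 after the gene's start, and those of the other 4 printed genes lay before it. The list was drawn up for the programme run by ATF4, so its larger share of matches says nothing about the patch. A match says only that the letters occur in the window.

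Interferon-response genes leaned upward. Of 15, 13 were above 1, against 60.9% of all genes, and 5 at least 2-fold higher. The median was 0.63, and 0.10 against the spots of the same piece. Ifit1, an RNA-binding antiviral protein, was at 32.6 CPM against 9.94, Cxcl10, a chemokine, at 41.3 against 14.9 and Isg15, a ubiquitin-like modifier, at 118 against 48.7. Proliferation genes were few at this depth: 4 of 27 reached 20 CPM. All 4 were above 1 and none 2-fold, with a median of 0.47 and of 0.38 against the same piece, and the list summed to 515 CPM against 335. Mki67 had 34 UMIs, 11.4 CPM against 4.54.

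Markers of other cell types were examined because a spot can hold several cells. Kupffer cell markers, of the resident liver macrophage, were below 1 in 11 of 11, with 4 at least 2-fold lower and a summed level of 880 CPM against 1510 elsewhere and 1495 in the 73 spots of the piece. Marco, a scavenger receptor, was at 14.8 against 56.0 and Clec4f at 92.0 against 223. Of 7 lipid-associated macrophage markers, 2 were at least 2-fold higher, Cd63 at 462 against 186 and Cd9 at 216 against 97.5, both also found in epithelial cells. Gpnmb, more specific to these macrophages, was at 44.3 against 23.98, and Trem2 stood below 20 CPM. This list's median was 0.64 against all other spots and -0.03 against those of the same piece.

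Fat cell markers were examined because Fabp4 is one of their genes. Adipoq and Plin1 had 0 UMIs and 4 of 8 members of the list had none, with a summed level of 339 CPM against 437. Capillary and vessel endothelium, where Fabp4 is also made, summed to 312 CPM against 327, with 5 of 14 members at 20 CPM or more and none past 2-fold. Sinusoidal endothelium summed to 347 against 387 CPM, with Lyve1, at 45.0 against 18.4, the 1 of 9 members past 2-fold. Cd36, a fatty acid receptor of endothelium and macrophages, was at 344 against 286.

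Bile duct and matrix markers lay around the patch more than in it. The cholangiocyte list summed to 494 CPM against 198, but Spp1 made up 426 of that, Krt19 had 8 UMIs, 2.69 CPM against 6.64, and 2 members had 0 UMIs. In the 73 spots of the piece the list summed to 848 CPM, and Krt19 was at 11.4. Cldn7, a tight junction protein, was at 23.5 CPM against 5.21. Stellate cell and fibroblast markers summed to 401 CPM in the patch, 428 elsewhere and 1185 in the 73 spots of the piece, where Col1a1 was at 183 against 38.6 CPM in the patch. The basement membrane collagens Col4a1 and Col4a2 were at 154 against 72.9 and 113 against 48.7 CPM, and at 176 and 124 in the 73 spots. Krt23, a keratin, and Tmsb10, an actin-binding peptide, were at 42.3 against 16.7 and 1530 against 445, but Tmsb10 was at 1401 in the 73 spots too.

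Lymphocytes, neutrophils and mesothelium gave little signal. T and NK cell markers summed to 17.5 CPM against 10.6, neutrophil markers to 71.9 against 72.8 and mesothelial markers to 1.34 against 0.810. Igkc, an antibody light chain, was lower with 9 UMIs, 3.02 CPM against 41.9. MHC class II and dendritic markers summed to 350 against 281 CPM and erythroid ones to 258 against 336.

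Position in the genome set off 1 chromosome. Of 262 chromosome 19 genes at 20 CPM or more, 224, 85.5%, were above 1 in the patch against the other kept spots, with a median log2 ratio of 0.53. On the other 19 chromosomes, 1 to 18 and X, the 5496 genes had a median of 0.09 with 59.8% above 1, and the 19 medians ran from 0.05 to 0.13. Over all 5829 genes, 60.9% were above 1. The comparison was made after the data were seen, and none of the 5 scoring genes lies on chromosome 19. The gap of 0.44 corresponds to a ratio of 1.36, and 26 of the 262 genes, 9.92%, were at least 2-fold higher against 3.20% elsewhere.

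The shift was spread over the chromosome and over levels of expression. By 10 Mb of the chromosome, medians were 0.55 (115 genes), 0.77 (27), 0.49 (18), 0.46 (29), 0.54 (56), 0.17 (13) and 0.03 (4), the last bins holding few genes. The gap to the other chromosomes was 0.41 for genes at 20 to 50 CPM, 0.41 at 50 to 200 and 0.58 above. It was 0.43 in the 181-spot group and 0.29 in the 16-spot group, 0.43 against spots of matched depth and 0.25 against the spots of the same piece. Set against the remaining spots, the chromosome 19 median was 0.56 in the patch, 0.21 in the Cpe patch and 0.13 in the Cib3 patch, where the medians of chromosomes 1 to 18 and X ran from 0.09 to 0.25 and from 0.08 to 0.20.

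**Figure D5:**
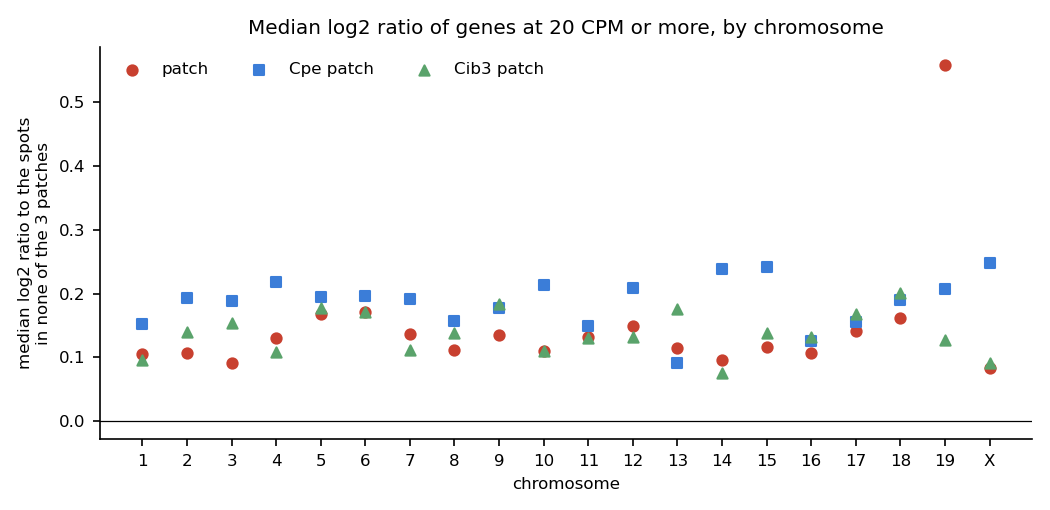
Median log2 ratio of genes at 20 CPM or more by chromosome, for the patch, the Cpe patch and the Cib3 patch, each against the spots in none of the 3. Chromosome 19 stands at 0.56 in the patch and at 0.21 and 0.13 in the other patches.

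The most abundant chromosome 19 genes are given with their own counts. Of the 50 with most UMIs in the patch, 41 were above 1. Ranking by patch UMIs favours genes that are higher there, and the same ranking was not made for other chromosomes. Rbp4, the plasma carrier of retinol, was at 13871 CPM against 7688, a ratio of 1.80 (1.79 to 1.82). Cfl1, an actin-severing protein, was at 430.0 against 259, Tmem258, a subunit of the oligosaccharyltransferase, at 483 against 233, Cdk2ap2, a cell cycle regulator, at 422 against 202 and Eef1g, an elongation factor, at 335 against 181. Not every gene joined: Fth1, ferritin heavy chain, was at 8114 against 10122 and Aldh1a1, a retinaldehyde dehydrogenase, at 718 against 1342. Gstp3, Psat1, Snhg1 and Ifit1, named above as higher, and Cyp2c38 and Cyp17a1, named as lower, also lie on chromosome 19. Of the 90 genes at least 2-fold higher, 11 do, 12.2%. Of the 2865 genes at 50 CPM or more from which these came, chromosome 19 held 104 at 50 to 200 CPM and 43 above. At 20 CPM or more, 9 of its 262 genes were at least 2-fold lower, against 3.6% of all genes.

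Spot by spot, the chromosome 19 share followed the patch outline. In an index of 189 chromosome 19 genes and 4491 others at 20 to 300 CPM, averaged over touching spots, patch spots ran from 4.64% through a median of 5.58% to 6.02%, and spots of other pieces from 2.89% through 4.38% to 5.80%. Of the 200 patch spots 193 exceeded the 99th percentile of the other pieces, 4.98%, and 3 of 2560 spots of other pieces reached the patch median. By zone the share was 5.60%, 5.60% and 5.46% inside, then 4.90%, 4.48% and 4.07% outside, and 4.36% in other pieces. The 20 spots richest in H19 and the enclosed hole both had 5.31%, although 11 of the 20 and all 8 of the hole were not patch spots. The whole of STAM16w, STAM20w, DEN22w and DEN30w had 4.03%, 4.46%, 4.28% and 4.44%.

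Y-linked genes were present. Eif2s3y was at 48.0 CPM in the patch and 43.7 elsewhere, and Kdm5d and Uty differed by less than their counting error, with ratios of 1.20 (0.782 to 1.77) and 0.873 (0.491 to 1.45). Ddx3y, an RNA helicase, stood apart with 11.1 CPM (33 UMIs) against 27.0, a ratio of 0.410 (0.281 to 0.580), and was at 25.3 CPM in the 73 spots of the same piece.

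The patch was set beside the Cpe and Cib3 patches of the same section to see where it differed. Of 3274 genes at 50 CPM or more in any of the classes, 25, or 0.764%, were at least 2-fold above both of these patches and the remaining spots, and 49, or 1.5%, at least 2-fold below. Lamb3 was at 149 CPM in the patch and 18.4, 8.82 and 18.8 in the Cpe patch, the Cib3 patch and the remaining spots. Cd24a was at 145 against 15.1, 30.5 and 21.2, Lepr at 245 against 17.8, 45.7 and 53.6 and Dcps, an mRNA decapping scavenger, at 88.4 against 24.2, 19.2 and 27.9. Vmn2r3, Slpi, Slc25a4, Gstp3, Rgs16 and Itih5 completed the 10 named. On the lower side, Sp5, a Wnt target, was at 0.672 CPM (2 UMIs) against 62.7, 5.61 and 4.77, and Lect2, a hepatokine and Wnt target, at 35.3 against 914, 97.8 and 150. Ces1g, an esterase, was at 82.3 against 490, 310 and 242, and Acnat2, an acyltransferase, at 13.1 against 55.4, 75.4 and 51.1. Mup20 was at 540 against 2456, 1967 and 1850, and Gsta1, Gsta2, Gstm2, Cyp7a1 and Msmo1 were also among the 10.

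Of the scoring genes, Fabp4 and Fabp5 were also high in the Cib3 patch, whose Fabp5 was at 800 CPM and Fabp4 at 588, while the Cpe patch held 84.4 and 309. Afp was at 63.7 CPM in the Cpe patch and 17.6 in the Cib3 patch. Against the remaining spots, 106 genes were at least 2-fold higher and 152 lower in the patch, 193 and 161 in the Cpe patch and 69 and 62 in the Cib3 patch, 3 comparisons that share the remaining spots.

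The same score was applied to the other sections, which the choice of spots had not used. The highest 200 spots of STAM16w, DEN22w and DEN30w began at scores of 2.27, 2.18 and 2.002 and peaked at 11.2, 6.34 and 9.46, so that 0 spots of any of them reached the patch's threshold. They were less clustered than the patch, with 60.9%, 45.0% and 51.0% of contacts among themselves, against 91.7% for the patch. Their largest connected groups held 66, 17 and 32 spots, against 181. Averaging the score over touching spots by itself brings the chosen spots together. At least 2-fold higher were 6 of 2512 genes (0.239%), 8 of 2909 (0.275%) and 32 of 3032 (1.06%). Of the patch's 90 higher genes, 65, 48 and 60 were above 1 in these spots, where 58.4%, 63% and 55.9% of all genes at 50 CPM or more were, and 6, 2 and 8 at least 2-fold. Of its 145 lower genes, 90, 68 and 101 were below 1, against 41.6%, 37% and 44.1% of all genes, and 0, 2 and 2 at least 2-fold lower, against 0%, 0% and 0.066%. The chosen spots were shallow in the fibrotic model, with medians of 4773.5 against 7560 UMIs in DEN22w and 4000 against 9874.5 in DEN30w, and 8980 against 9781 in STAM16w; what part depth had in these counts was not tested. No counterpart of the patch was found at this resolution in the other 3 sections.

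What the highest spots of the other sections held was different in each. In STAM16w, Cyp2a4 was at 568 CPM against 132 in the rest of that section and Nupr1, a stress-induced chromatin protein, at 75.7 against 22.6. In DEN22w, macrophage genes led, with Cd68 at 79.7 against 32.0 and Gpnmb at 197 against 87.9. In DEN30w, plasma cell genes led, with Ighm at 365 against 51.6, beside Cyp2a4 at 193 against 8.73 and Slpi at 188 against 44.8. Slpi in STAM16w was at 10.8 against 2.64 CPM, on 19 UMIs, a ratio of 4.09 (2.28 to 7.07), next to 4.20 (3.65 to 4.80) in DEN30w, and in DEN22w it had 4 UMIs. Cyp2a4 and Slpi were thus high beside the score in the patch, STAM16w and DEN30w.

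Levels of the patch were also compared with each whole section. All 90 higher genes were above the level of STAM16w, 87 above that of DEN22w and 88 above that of DEN30w, where 67%, 63.3% and 59.3% of all 2865 genes were above. Of the 145 lower genes, 135, 107 and 113 were below, against 33%, 36.7% and 40.7% of all. The genes had been chosen for their level in the patch, which enters these counts as well. Areg, the growth factor amphiregulin, chosen after its values were seen, was at 74.2 CPM in the patch and 20.4 elsewhere in STAM20w, and at 0.773, 0.0890 and 0.258 CPM in the other sections.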

How the data were processed

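Per the file headers and values, each deposited matrix gives raw UMI counts by gene and spot, with no normalisation by the authors. The submitters' processing notes name Space Ranger 1.3.1, STAR and the mm10 build; the annotation version is not given in the sources used here. Kept spots had at least 500 UMIs and 250 genes. Counts were summed over each class of spots of a section and divided by its total (CPM), and classes were compared by the ratio of CPM, with 3 counts in place of 0. Intervals are exact Poisson (levels) and exact binomial (ratios) at 95%. With 1 section per group there was no test; a gene was counted at 2-fold, at 50 CPM in the higher class, or 20 CPM for lists. Spots are not cells and no doublet caller was run.

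Named genes were the 15 with the largest and the 15 with the smallest ratio, at least 1.5-fold on the same side against depth-matched spots and against spots within 5 steps; up to 4 members per list; and the 10 per direction that differed most from both other patches. Genes outside this rule are given as list members or by level. Members and lists were chosen with earlier results of these data known. Gene positions and promoters came from RefSeq (GRCm38.p6); 26335 of the 32285 genes matched it by symbol. Reads shared by close paralogs (Mup, Gst, Cyp2, Saa) can be lost or divided unevenly. Computations were run in Python 3.11.15 with numpy 2.4.6, pandas 2.3.3, scipy 1.17.1 and matplotlib 3.10.9, and were tested on simulated data. Tissue images were not used.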

Additional observations from a re-analysis of the deposited data

How the results depend on the processing

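Over 23 alternatives, 22 of them planned, the ratios of the 30 named genes kept their side of 1 in all 570 values (19 alternatives each), of which 104 moved beyond the counting interval. The naming rule had already required the same side against depth-matched spots and against spots within 5 steps, so those values could not reverse. The genes were also picked for the most extreme ratios, which makes reversals unlikely elsewhere. Counts of genes past 2-fold (90 higher, 145 lower) stayed within 1.5 times except in these cases. Against spots of the same piece they were 23 and 45, and the share of chromosome 19 genes above 1 was 68.4% in place of 85.5%. With a floor of 20 CPM 206 genes were higher, and with one of 100 CPM 53. A fold of 1.5 gave 275 higher and 319 lower, and a fold of 3 gave 34 and 64. Contacts within the patch were 84.3% when spots were scored alone and 79.6% for the top 100 spots, in place of 91.7%. Of 322 median log2 ratios of 17 lists, 3 reversed, all against spots of the same piece: lipid-associated macrophage (-0.031), matrix (-0.59) and keratin and cytoskeleton (-0.057) genes; the cause was not tested. Taking the whole piece against the other pieces, chosen after seeing the data, gave 78 higher and 111 lower genes. No paired analysis was possible because each group held 1 section. Counting error limits genes below about 20 CPM in the patch, and a count of 0 there, taken as up to 3 UMIs, allows 1.01 CPM. Animals, times and models cannot be told apart with 1 section each.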
